A study of Homo sapiens with 12 samples.

Results

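SPH, a derivative of the colorectal cancer line DLD1 recovered from colonospheres, was compared with SA, a derivative of the same line recovered from soft agar colonies. The members of the comparison were the SPH and SA libraries of each of 3 histone marks, 6 of the 12 libraries of the series, chosen by the line and antibody given in the labels. Colonospheres are clusters that tumour cells form in suspension, and soft agar colonies are those they form without attachment to a surface. The labels describe both lines as mesenchymal, and give no passage, clone or pool. The remaining lines were METS, an epithelial derivative of a lung metastasis in a xenograft, and the epithelial parent DLD1; they are given only as context. All 4 lines were kept in McCoy's 5A medium with serum, penicillin and streptomycin, and each had 1 library per mark, so no difference below has a replicate check and no p-value was computed. The titles call the derivatives parental as well, so the descriptions were used to tell the lines apart.

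Trimethylation of histone H3 at lysine 4 (H3K4me3) marks the promoters of active and poised genes. Trimethylation at lysine 27 (H3K27me3) is laid down by Polycomb repressive complex 2, often over whole silent genes. Methylation at lysine 79 (H3K79me3) is the product of DOT1L and covers the first part of transcribed gene bodies. The question addressed was how far the chromatin of 2 lines with the same parent and the same described state had diverged.

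Read counts were given for 36400 H3K4me3 regions, 50000 H3K27me3 intervals and 157878 H3K79me3 regions. Totals were 7153391 in SPH and 7753937 in SA for H3K4me3, 20410151 in SPH and 18892326 in SA for H3K27me3, and 6165169 in SPH and 7273964 in SA for H3K79me3. Values are CPM, counts scaled to a common library total of 1000000. A region or gene was called when log2 of (CPM in SPH + 0.5) over (CPM in SA + 0.5) reached 1 in either direction, which is 2-fold. Folds of single regions are plain CPM ratios; the 95% range after each is exact (Clopper-Pearson) and reflects counting error alone. The H3K27me3 intervals are gene bodies without names, and symbols were assigned by matching body lengths and spacings to RefSeq. That table ends at position 33793470 of chromosome 19, so regions beyond it and on later chromosomes are given by position.

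Promoters are shown for 6 genes at which SPH had almost no H3K4me3 and for 2 genes at which H3K27me3 was far lower in SPH. The regions are in the hg19 build and no coordinates were converted, so a window may lie at another start of its gene than the region does. This was not checked for any of the genes, SLC4A4 included. Each is the RefSeq window from 250 bases before to 50 after the gene start in GRCh38.p14, with the dinucleotide CG in capitals. CG was searched on 1 strand only, since it reads the same on both. The windows are chr4:337564-337863, plus strand, for ZNF141; chr10:103452321-103452620, minus strand, for CALHM2; chr13:32428081-32428380, minus strand, for N4BP2L1; chr12:16347395-16347694, plus strand, for MGST1; chr4:71062410-71062709, plus strand, for SLC4A4; chr19:12365634-12365933, minus strand, for ZNF442; chr17:81395207-81395506, plus strand, for BAHCC1; and chr2:118088221-118088520, plus strand, for INSIG2.
ZNF141: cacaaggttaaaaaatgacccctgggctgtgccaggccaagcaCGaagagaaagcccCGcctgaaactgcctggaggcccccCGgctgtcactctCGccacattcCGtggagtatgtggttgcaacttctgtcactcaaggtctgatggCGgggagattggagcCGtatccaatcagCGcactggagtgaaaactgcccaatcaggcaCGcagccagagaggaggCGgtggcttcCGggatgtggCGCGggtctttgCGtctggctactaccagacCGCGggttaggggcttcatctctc
CALHM2: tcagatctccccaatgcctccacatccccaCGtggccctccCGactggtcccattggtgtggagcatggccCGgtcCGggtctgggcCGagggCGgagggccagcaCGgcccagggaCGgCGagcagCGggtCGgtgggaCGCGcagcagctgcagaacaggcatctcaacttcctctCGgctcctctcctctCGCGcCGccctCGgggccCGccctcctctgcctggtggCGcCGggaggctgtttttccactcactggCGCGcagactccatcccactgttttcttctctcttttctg
N4BP2L1: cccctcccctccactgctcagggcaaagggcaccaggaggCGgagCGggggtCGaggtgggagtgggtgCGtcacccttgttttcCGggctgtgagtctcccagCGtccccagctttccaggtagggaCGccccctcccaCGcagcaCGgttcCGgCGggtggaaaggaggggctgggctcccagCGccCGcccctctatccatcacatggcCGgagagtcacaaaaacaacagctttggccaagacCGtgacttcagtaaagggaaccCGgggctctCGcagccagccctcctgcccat
MGST1: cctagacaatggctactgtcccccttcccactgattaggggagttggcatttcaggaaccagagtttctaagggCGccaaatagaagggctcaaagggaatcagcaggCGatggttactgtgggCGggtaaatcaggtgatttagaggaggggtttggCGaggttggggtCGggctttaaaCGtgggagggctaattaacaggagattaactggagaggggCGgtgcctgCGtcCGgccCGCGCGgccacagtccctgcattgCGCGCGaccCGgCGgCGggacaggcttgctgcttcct
SLC4A4: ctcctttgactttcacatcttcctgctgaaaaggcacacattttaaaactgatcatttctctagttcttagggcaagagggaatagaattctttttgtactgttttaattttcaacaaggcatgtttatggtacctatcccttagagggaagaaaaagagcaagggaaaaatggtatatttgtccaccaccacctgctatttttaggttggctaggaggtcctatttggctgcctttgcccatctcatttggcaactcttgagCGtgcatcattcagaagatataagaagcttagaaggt
ZNF442: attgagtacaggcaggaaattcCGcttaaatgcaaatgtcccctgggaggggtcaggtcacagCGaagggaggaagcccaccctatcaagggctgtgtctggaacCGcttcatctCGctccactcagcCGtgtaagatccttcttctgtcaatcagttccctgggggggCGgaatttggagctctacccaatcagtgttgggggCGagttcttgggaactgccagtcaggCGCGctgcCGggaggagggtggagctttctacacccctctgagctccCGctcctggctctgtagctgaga
BAHCC1: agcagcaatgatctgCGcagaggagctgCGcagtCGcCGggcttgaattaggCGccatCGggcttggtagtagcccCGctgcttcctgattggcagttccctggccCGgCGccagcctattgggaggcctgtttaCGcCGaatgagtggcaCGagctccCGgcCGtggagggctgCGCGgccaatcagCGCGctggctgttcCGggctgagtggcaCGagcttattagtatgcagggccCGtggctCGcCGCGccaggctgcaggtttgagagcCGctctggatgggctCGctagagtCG
INSIG2: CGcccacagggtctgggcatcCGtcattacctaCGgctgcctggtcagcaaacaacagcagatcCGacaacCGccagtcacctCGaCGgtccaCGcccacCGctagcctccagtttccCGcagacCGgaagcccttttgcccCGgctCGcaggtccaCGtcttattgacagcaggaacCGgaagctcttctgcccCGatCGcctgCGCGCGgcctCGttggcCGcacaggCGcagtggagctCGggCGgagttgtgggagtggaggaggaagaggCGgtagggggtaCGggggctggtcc
These windows held 16 CG in ZNF141, 23 in CALHM2, 17 in N4BP2L1, 18 in MGST1, 1 in SLC4A4, 11 in ZNF442, 27 in BAHCC1 and 27 in INSIG2. Over the 27305 RefSeq promoter windows the median was 14, and 95.8% held at least 1; over the genes with H3K4me3 of 40 counts or more the median was 26. The CG counts are a description of the sequence only. No comparison of CG between the called genes and the rest is given, because only 75.9% of the 58 genes with lower H3K4me3 had a window.

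Active marks lay at epithelial markers in both lines, although the labels describe the lines as mesenchymal. These are histone marks in 1 library per line, and RNA and protein were not looked at. All 8 epithelial markers that had been assigned an interval carried H3K4me3 and H3K79me3 in both lines, and none differed 2-fold. CDH1, which encodes E-cadherin, had 5178 H3K79me3 counts in SPH and 4958 in SA. The epithelial transcription factor gene GRHL2 had 2906 in SPH and 3754 in SA, and the keratin gene KRT8 had 2060 in SPH and 1718 in SA. Summed over the 8 genes, H3K79me3 was 2129 CPM in SPH and 1796 CPM in SA. No H3K79me3 region of the table lay at any of the 8 mesenchymal markers VIM, ZEB1, ZEB2, FN1, SNAI2, SPARC, CDH2 and COL1A1. H3K4me3 regions lay at 5 of them, among which VIM, the vimentin gene, had 259 counts in SPH and 242 in SA. CDH2, which encodes N-cadherin, was called higher, with 35 counts in SPH and 14 in SA, 2.71-fold (1.42 to 5.45). Of 3 colon markers with an interval, 1 had H3K79me3, the intestinal factor gene CDX2, with 2405 counts in SPH and 1713 in SA.

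H3K4me3 was higher by 2-fold in SPH at 1099 of 35301 regions with a count, 3.11%, and lower at 447, 1.27%. The size of the differences ran the other way: at 4-fold, 12 regions were higher in SPH and 80 were lower. Most of the higher regions were faint, with 679 of them among the 8826 regions with the lowest mean level and 3 among the 8825 with the highest. The median log2 ratio of these sets was 0.23 in the lowest and -0.08 in the highest. The 12 regions past 4-fold had medians of 4.75 CPM in SPH and 0.709 CPM in SA.

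The 80 regions at least 4-fold lower in SPH had a median of 2 counts in SPH and 40.5 in SA, and 9 of them had 0 counts in SPH. Medians were 0.280 CPM in SPH, 5.22 CPM in SA, 12.8 CPM in METS and 10.6 CPM in DLD1. METS lay above SA at 75 of the 80 and DLD1 at 75, so SA was itself below the other lines at most of them. Of the 70 with a gene start on their chromosome to measure from, 26 lay within 1 kb of one, 37.1%, against 35.8% of all regions. No start was assigned on chromosome 19 beyond position 33793470, so regions past it were measured from earlier starts.

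**Figure D1:**
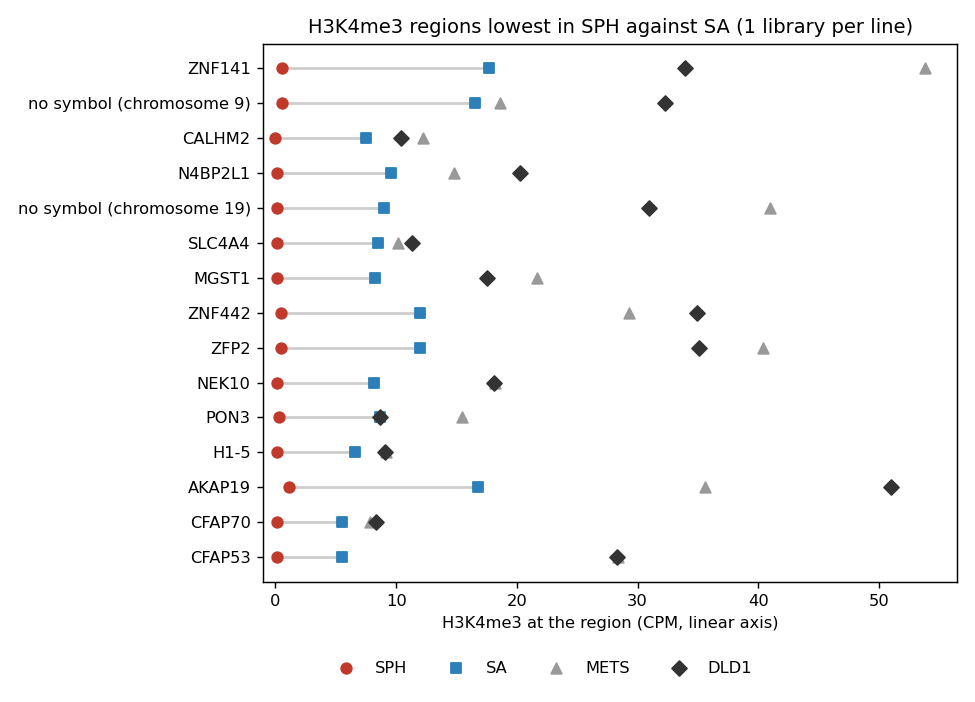
H3K4me3 in CPM (linear axis) at the 15 regions with the lowest log2 ratio of SPH to SA among those with at least 5 CPM in SPH or SA, 1 row per region, with 1 symbol per line (1 library each). SPH lies at 1.12 CPM or below in every row, SA between 5.55 and 17.7 CPM, and METS and DLD1 mostly further right. Gene symbols mark a region on the gene body or within 2 kb of it, not always at its start. The 15 were chosen after their values had been seen.

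The next genes were chosen after their values were seen, from regions with at least 5 CPM in a line; there, 542 of 26644 regions were higher in SPH, 2.03%, and 144 were lower, 0.54%. ZNF141, a KRAB zinc finger gene, had 4 counts in SPH, 137 in SA, 393 in METS and 228 in DLD1 at chr4:331708-332143 (hg19), 322.5 bp from its start. That is 31.6-fold lower in SPH than in SA (12.1 to 118). The SPH promoter was close to empty, while the other 3 lines all carried the mark, in amounts that differed between them. In libraries made from many cells, a lower level in every cell and a mark missing from some cells cannot be told apart.

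CALHM2, for a membrane channel family protein, had 0 counts in SPH, 58 in SA, 89 in METS and 70 in DLD1 at chr10:105211665-105212128. Against a floor of 3 counts in the SPH library this is at least 17.8-fold lower. The same region also lies by CALHM1, so the 2 genes cannot be told apart. N4BP2L1 had 1 count in SPH, 74 in SA, 108 in METS and 136 in DLD1 at chr13:33001816-33002328, a ratio of 68.3-fold lower (11.9 to 2732). MGST1, for a microsomal glutathione transferase, had 1 count in SPH, 64 in SA, 158 in METS and 118 in DLD1 at chr12:16500519-16501031, 59.0-fold lower (10.2 to 2368). SPH had at most 1 count at each of these 3 regions.

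SLC4A4, a sodium bicarbonate cotransporter gene, had 1 count in SPH, 66 in SA, 74 in METS and 76 in DLD1. PON3, a paraoxonase gene whose product cleaves lactones, had 2 counts in SPH, 67 in SA, 113 in METS and 58 in DLD1. CFAP70, named for cilia and flagella, had 1 count in SPH, 43 in SA, 57 in METS and 56 in DLD1. At PON3 SA and DLD1 were about level in CPM, at 8.64 in SA and 8.63 in DLD1. CFAP53, another cilium gene that shares its region with MBD1, had 1 count in SPH, 43 in SA, 207 in METS and 190 in DLD1.

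A pair of further zinc finger genes was among these regions. ZNF442 on chromosome 19 had 3 counts in SPH, 93 in SA, 214 in METS and 235 in DLD1, and ZFP2 on chromosome 5 had 3 in SPH, 93 in SA, 295 in METS and 236 in DLD1. Both were 28.6-fold lower in SPH (9.49 to 141). On chromosome 19, where the intervals stop at position 33793470, 79 of 255 zinc finger genes had been assigned one. Of the 54 of these with H3K4me3, 0 were higher and 3 lower, ZNF442, ZNF433 and ZNF493, which is 5.56% lower. Over all chromosomes, a list drawn up after the values were seen, 1 of 244 was higher and 6 were lower, 2.46%. Of all 11061 protein-coding genes with counts 0.985% were lower, and the median log2 ratio was -0.03 both over these and over the 244. These genes are similar in sequence, and reads shared between copies could move counts from one to another.

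Summed over gene bodies with 2 kb on each side, H3K4me3 was higher in SPH at 55 of those 11061 genes, 0.497%, and lower at 109, 0.985%. Among the 10473 genes with 40 counts or more in a line, 23 were higher, 0.22%, and 58 lower, 0.554%. The 58 lower genes had medians of 2.73 CPM in SPH, 9.41 in SA, 17.0 in METS and 17.0 in DLD1. H3K27me3 over their bodies was above SA in SPH at 26 and below it at 32, while 63.8% of all genes with both marks were above SA. It was called higher at 0 and lower at 1 of the 58; over all genes 0.0955% were called higher, so a count of 0 says little about these genes.

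Regions that are strong in H3K4me3, at 59.97 CPM (3 times the median) or more in a line, seldom differed by 2-fold. Of 6944 such regions 4 were 2-fold higher in SPH and 0 lower. WDR59, for a subunit of the GATOR2 complex in amino acid signalling to mTORC1, had 474 counts in SPH, 215 in SA, 192 in METS and 196 in DLD1 at chr16:75019462-75019881, which is inside the gene. TNFSF9, for the ligand of the T cell receptor 4-1BB, had 560 counts in SPH, 282 in SA, 223 in METS and 251 in DLD1. These were 2.39-fold (2.03 to 2.82) and 2.15-fold (1.86 to 2.49) higher in SPH, and SPH was the highest of the 4 lines at both. The region between KHNYN and SDR39U1 had 655 counts in SPH and 306 in SA, 2.32-fold higher (2.02 to 2.67).

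The largest decrease that met this level was 1.70-fold (1.46 to 1.98), at the noncoding gene LINC03009. ASCL2, the transcription factor gene of intestinal stem cells, had 309 counts in SPH, 559 in SA, 720 in METS and 426 in DLD1, 1.67-fold lower (1.45 to 1.92). DUSP2, a MAP kinase phosphatase gene, had 286 counts in SPH and 522 in SA, 1.68-fold lower (1.45 to 1.95). Neither reached 2-fold.

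Fainter H3K4me3 regions, again chosen after their values were seen, included some with folds above 4. At OTX2-AS1, antisense to the homeobox gene OTX2, there were 80 counts in SPH, 16 in SA, 14 in METS and 10 in DLD1, 5.42-fold higher (3.14 to 9.93). No assigned protein-coding gene lay on or within 2 kb of this region, so it is not shown to be a promoter mark of OTX2. The region chr5:157051421-157051847 had 40 counts in SPH, 8 in SA, 17 in METS and 2 in DLD1, 5.42-fold higher (2.50 to 13.4). It falls within the 2 kb added to the body of SOX30, a testis transcription factor gene, and is 46854 bp from that gene's start, so it is no promoter mark of SOX30. SPH was the highest line at both.

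H3K27me3 was 2-fold higher in SPH at 111 of 47017 intervals, 0.236%, and lower at 199, 0.423%, with 2 higher and 4 lower at 4-fold. Among intervals with at least 5 CPM in a line, which the named ones had to reach, the highest fold was at BCKDHB, which encodes a subunit of the branched-chain ketoacid dehydrogenase, over the whole 239.6-kb body at chr6:80816364-81055987. It had 3116 counts in SPH, 663 in SA, 881 in METS and 681 in DLD1, 4.35-fold higher (4.0 to 4.74). H3K4me3 at BCKDHB was nevertheless 358 counts in SPH and 422 in SA, and H3K79me3 was 67 in SPH and 76 in SA. Neither of those marks was called there.

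NR2F1, an orphan nuclear receptor gene, had 137 H3K27me3 counts in SPH, 36 in SA, 53 in METS and 49 in DLD1, 3.52-fold higher (2.42 to 5.24); its antisense gene lies in the same interval. EMB, for the adhesion protein embigin, had 839 in SPH, 308 in SA, 715 in METS and 219 in DLD1, with SPH and METS high. RASGRF2, a Ras exchange factor gene, had 2851 in SPH, 1116 in SA, 3386 in METS and 1163 in DLD1, 2.36-fold higher (2.21 to 2.54). In both of these genes SPH stood with METS rather than SA. H3K4me3 at RASGRF2 was 336 counts in SPH and 635 in SA. GJA3, a connexin gene, had 552 in SPH and 205 in SA, 2.49-fold higher (2.12 to 2.94).

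Higher H3K27me3 also came in runs of neighbouring intervals. A run, here and for the lower stretches below, was a group of at least 4 called intervals with gaps of at most 500 kb. The calls in each run are therefore what picked it out. The UGT1A genes on chromosome 2, whose products conjugate glucuronic acid to bilirubin and drugs, share their 3′ exons, so their rows hold the same reads in part. All 8 intervals with 40 counts or more between positions 234580499 and 234681946 were above SA, 5 of them by 2-fold. On chromosome 17, over 351.6 kb around the potassium channel genes KCNJ16 and KCNJ2, all 6 such intervals were above SA and 4 were called. The interval across KCNJ16 had 1144 counts in SPH, 439 in SA, 909 in METS and 366 in DLD1, 2.41-fold higher (2.16 to 2.70).

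**Figure D2:**
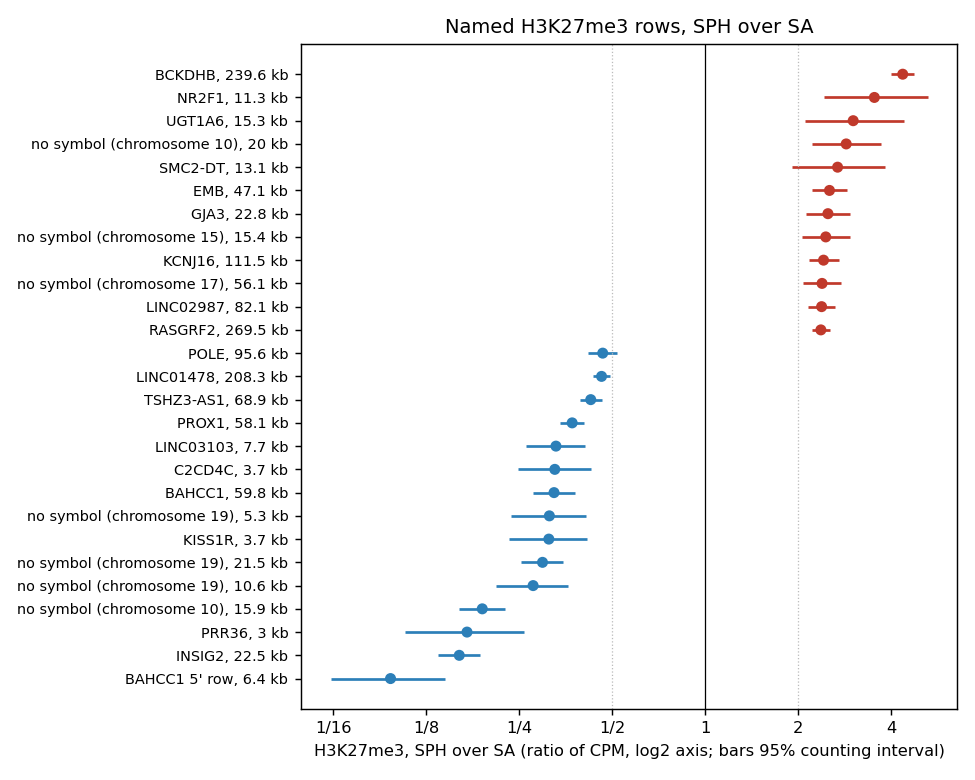
H3K27me3 in SPH over SA (ratio of CPM, log2 axis) at the named intervals, with their length; bars are exact 95% counting intervals, red is higher and blue lower in SPH, and dotted lines mark 2-fold. The interval at the start of BAHCC1 and INSIG2 lie farthest to the left and BCKDHB farthest to the right. The names, POLE and PRR36 included, are those assigned by length and spacing.

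The lowest ratio of H3K27me3 was at chr17:79369275-79375658, an interval across the start of BAHCC1, a gene for a BAH-domain protein that binds H3K27me3. It had 26 counts in SPH, 251 in SA, 75 in METS and 504 in DLD1, 10.4-fold lower (6.95 to 16.3). The 59.8-kb BAHCC1 body had 216 in SPH, 617 in SA, 433 in METS and 805 in DLD1, 3.09-fold lower (2.64 to 3.62). The 4 lines were in the same order at both, with SPH lowest and DLD1 highest. The 2 intervals overlap, so they hold some of the same reads.

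INSIG2, whose product holds back the sterol sensor SCAP in the endoplasmic reticulum, had 191 H3K27me3 counts in SPH, 1105 in SA, 203 in METS and 536 in DLD1, 6.25-fold lower (5.36 to 7.33). SA was the highest line here at 58.5 CPM, followed by DLD1 at 34.3 CPM. H3K4me3 at INSIG2 was 674 counts in SPH and 672 in SA, and H3K79me3 was 220 in SPH and 305 in SA, neither of them called. The unnamed interval chr10:3529086-3545030 had 168 counts in SPH, 819 in SA, 142 in METS and 115 in DLD1, 5.27-fold lower (4.46 to 6.26), and there SA alone was high.

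The interval chr19:7981030-7983982 had 26 counts in SPH and 142 in SA, 5.90-fold lower (3.86 to 9.34). Its assigned name, PRR36, rests on length and spacing alone, was not checked against hg19 genes and is uncertain. KISS1R, for the kisspeptin receptor, had 65 in SPH, 193 in SA, 259 in METS and 241 in DLD1, 3.21-fold lower (2.41 to 4.32). SPH was the lowest line there. On chromosome 19, over 744.7 kb that hold TSHZ3-AS1 and LINC03103, all 10 intervals with 40 counts or more were below SA and 8 were called, with a median log2 ratio of -1.40. All 22 such intervals of a 513.2-kb stretch of chromosome 16 with SSTR5, CACNA1H and BAIAP3 were below SA, 5 of them by 2-fold. On chromosome 12, over 1244.1 kb between positions 126580538 and 127824617, 14 of 16 were below SA and 2 above, with 6 called lower. Many intervals in these stretches overlap, so they do not count as separate observations.

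Long intervals, of 50 kb or more and reaching 300 counts in SPH or SA, numbered 6182; 19 of them were higher in SPH, 0.307%, and 8 lower, 0.129%. PROX1, a homeobox gene switched on by Wnt signalling in colon tumours, had 688 H3K27me3 counts in SPH, 1717 in SA, 983 in METS and 1450 in DLD1, 2.70-fold lower (2.47 to 2.95). Its H3K4me3 was 548 in SPH, 282 in SA, 388 in METS and 265 in DLD1, 2.11-fold higher (1.82 to 2.44). An antisense gene overlaps PROX1, and no H3K79me3 region lay there. The interval chr12:133066137-133161774, assigned to POLE, had 492 H3K27me3 counts in SPH, 978 in SA, 1277 in METS and 939 in DLD1. It was 2.15-fold lower in SPH (1.93 to 2.40). The nearest H3K4me3 region summed for it lay 24821.5 bp from the assigned start, and others lay at the opposite end. The name is therefore uncertain, and the values may belong to another gene.

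Of 15026 protein-coding genes, 17 had higher H3K27me3 in SPH, 0.113%, and 56 lower, 0.373%. With 40 counts or more in a line these were 13 of 12411, 0.105%, and 42, 0.338%. The 42 genes with lower H3K27me3 included 13 with H3K79me3, of which 12 were above SA in that mark and 6 were called higher. Over all genes with both marks, 44.8% were above SA in H3K79me3 and 4.40% were called higher. The position of H3K79me3 regions described below moves with these values, and its part was not tested.

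H3K79me3 was 2-fold higher in SPH at 9088 of 155169 regions, 5.86%, and lower at 8266, 5.33%. Its median log2 ratio was -0.11 with library totals, and edgeR TMM factors moved it to 0.00; ratios below are from totals and can be read against that median. The balance of calls moved with this scaling. Of the called regions 52.4% were higher with totals, and 66.9% with TMM factors, at 11889 higher and 5875 lower. For regions of at least 5 CPM in a line, 4911 of 64445 were higher, 7.62%, and 2419 lower, 3.75%.

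The direction of H3K79me3 depended on the distance from gene starts. Within 500 bp of the start of an assigned protein-coding gene, 734 of 3204 regions were higher in SPH, 22.9%, and 31 were lower, 0.968%, with a median log2 ratio of 0.58. From 500 to 1000 bp 562 of 2996 were higher, 18.8%, and the median was 0.37. Beyond 1000 bp the medians of 5 further bins lay between -0.15 and -0.11. Regions of chromosome 19 past position 33793470 had no assigned start near them and were measured from earlier ones. Regions within 500 bp of a start held 3.38% of the counts in SPH, 2.10% in SA, 3.45% in METS and 2.49% in DLD1, so SPH stood with METS, and SA with DLD1. H3K4me3 ran the other way and over a smaller range, with a median of -0.03 within 500 bp and 0.19 beyond 100 kb of a start, and with 0.578% and 5.87% of regions called higher in those bins.

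**Figure D3:**
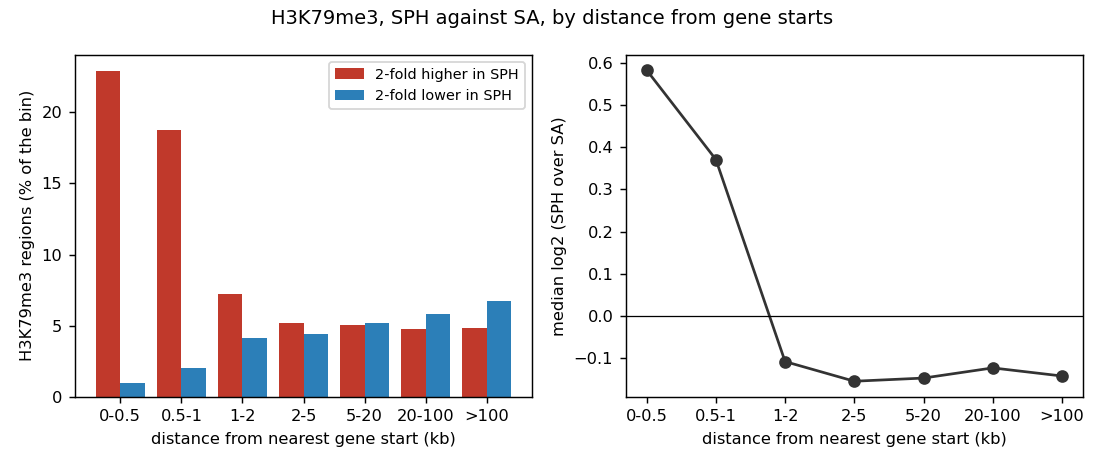
H3K79me3 regions binned by distance from the nearest gene start (kb). The left panel gives the share of regions at least 2-fold higher (red) or lower (blue) in SPH than in SA, and the right panel the median log2 ratio of SPH over SA; regions higher in SPH make up 22.9% of the first bin, and the median is below 0 from 1 kb on.

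Gene-dense chromosomes were also set apart. The median log2 ratio of H3K79me3 regions was 0.37 on chromosome 19, 0.15 on chromosome 22 and 0.15 on chromosome 16, against -0.25 on chromosome 18 and -0.25 on chromosome 3. The medians of H3K4me3 lay between -0.03 and 0.13 over chromosomes 1 to 22 and X, and those of H3K27me3 between -0.07 and 0.12 over chromosomes 1 to 19. Genes with bodies under 10 kb had a median of 0.39 and 171 of 1240 called higher with 3 lower, and genes of 100 kb or more had a median of -0.19. All single-gene values and list shares of H3K79me3 below stand against these trends, whose part in them was not tested.

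**Figure D4:**
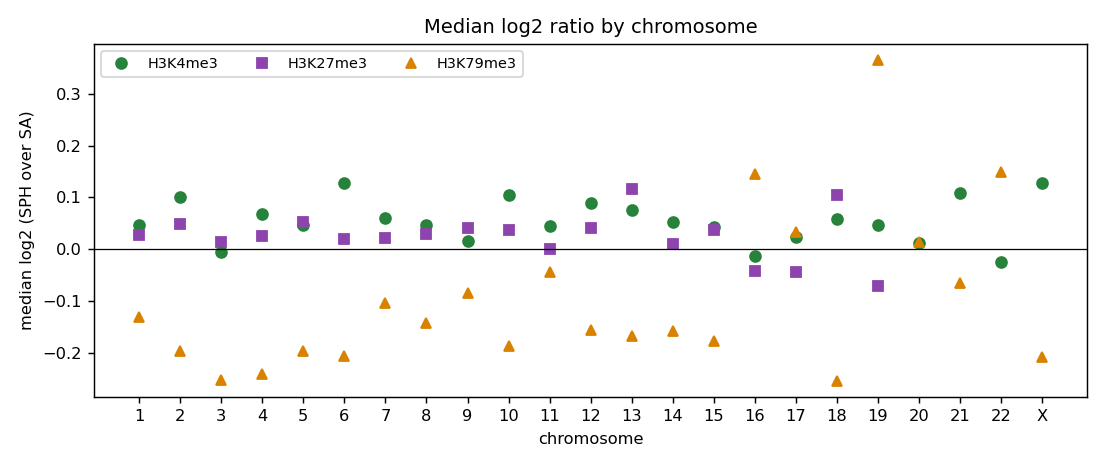
Median log2 ratio of SPH over SA by chromosome for H3K4me3 (circles), H3K27me3 (squares) and H3K79me3 (triangles), 1 library per line and mark; H3K27me3 values end at chromosome 19. H3K79me3 is at 0.37 on chromosome 19 and near -0.25 on chromosomes 3 and 18, while the other marks stay near 0.

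Over gene bodies H3K79me3 was called higher in SPH at 534 of 9146 protein-coding genes, 5.84%, and lower at 96, 1.05%; with 40 counts or more in a line these were 390 of 7235, 5.39%, and 36, 0.498%. The 390 genes had H3K4me3 below SA in 338 of 387, where 45.5% of all genes with both marks were above SA. H3K27me3 was below SA in 283 of 390, where 71.4% of all such genes were above SA. The 36 genes with lower H3K79me3 had H3K27me3 above SA in 32.

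SLC16A3, which encodes the lactate exporter MCT4, held the single region with the largest difference under the rule for naming regions (11.96 CPM or more in a line), at chr17:80194937-80195384. It had 115 H3K79me3 counts in SPH, 18 in SA, 44 in METS and 25 in DLD1, 7.54-fold higher (4.56 to 13.2), in a window that also takes in CSNK1D. Of the 33 regions along SLC16A3 with 2 kb on each side, 31 were above SA and 20 were called. Those from position 80197676 on lie on CSNK1D as well, so they could belong to either gene. DUSP8, another phosphatase gene of MAP kinases, had 80 in SPH and 17 in SA, 5.55-fold higher (3.26 to 10.0). LRATD1 had 136 in SPH, 32 in SA, 38 in METS and 35 in DLD1, 5.01-fold higher (3.39 to 7.62), with SPH alone high.

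On the lower side, HMGA2, an oncofetal chromatin protein gene, had 49 H3K79me3 counts in SPH, 203 in SA, 57 in METS and 168 in DLD1 at chr12:66224723-66225096, 3.51-fold lower (2.56 to 4.90). Of 83 regions along HMGA2, 78 were below SA and 42 were called lower. PJA2, a ubiquitin ligase gene, had 23 in SPH, 108 in SA, 32 in METS and 69 in DLD1, 3.98-fold lower (2.52 to 6.54). HDAC2, a histone deacetylase gene, had 26 in SPH, 109 in SA, 33 in METS and 58 in DLD1 at an internal region, 3.55-fold lower (2.30 to 5.68), where an antisense gene overlaps it. METS was near SPH in each. The lowest ratio under that rule was in the mitochondrial genome, whose share of H3K79me3 counts was 0.0178% in SPH and 0.0446% in SA; its share of H3K4me3 counts was 0.0323% in SPH and 0.0162% in SA. CDK6, a kinase of the G1 phase chosen after its values were seen, had 199 counts over its body in SPH and 683 in SA, with 22 of 45 regions called lower and 0 called higher.

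Several genes differed in more than 1 mark. Of 15077 protein-coding genes with an assigned interval, 13 passed 2-fold in at least 2 marks, with 20 counts or more in SPH or SA in each. BAHCC1 was the clearest. Its H3K79me3 was 4129 counts in SPH, 1948 in SA, 2591 in METS and 895 in DLD1, 2.50-fold higher (2.37 to 2.64). All 31 of its H3K79me3 regions were above SA and 25 were called, while H3K27me3 over the body was 3.09-fold lower as above. H3K4me3 was 659 in SPH and 643 in SA, with 0 of 8 regions called.

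The interval assigned to POLE, a name that is uncertain as stated above, had 1419 H3K79me3 counts in SPH, 664 in SA, 1345 in METS and 759 in DLD1. That is 2.52-fold higher (2.30 to 2.77), beside its lower H3K27me3. BAIAP3, a gene of vesicle release, had 99 in SPH and 50 in SA for H3K79me3, and 68 in SPH and 160 in SA for H3K27me3. B4GALNT4, a glycosyltransferase gene, had 920 in SPH and 467 in SA for H3K79me3, and 28 in SPH and 63 in SA for H3K27me3. PSD, an exchange factor gene for ARF6, had 22 in SPH and 11 in SA for H3K79me3, and 300 in SPH and 594 in SA for H3K27me3. In these 5 genes, named as assigned, H3K79me3 was called higher and H3K27me3 lower.

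The opposite combination was called at 2 genes. NR2F1 had 32 H3K79me3 counts in SPH, 81 in SA, 180 in METS and 121 in DLD1, 0.466 of the SA level (0.299 to 0.710), beside its higher H3K27me3. PPP1R14C, for an inhibitor of protein phosphatase 1, had 21 in SPH and 70 in SA for H3K79me3, and 1522 in SPH and 632 in SA for H3K27me3. NFIB, a transcription factor gene named here after its values were seen, had 101 H3K79me3 counts in SPH, 576 in SA, 288 in METS and 1050 in DLD1, with all 22 regions below SA and 15 called. Its H3K27me3 was 6486 in SPH and 3197 in SA, 1.88-fold higher (1.80 to 1.96) and short of a call. Its H3K4me3 was 740 in SPH and 1285 in SA, with 4 of 9 regions called lower.

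ZNF141 and MGST1 were lower in both active marks. ZNF141 had 6 H3K79me3 counts in SPH, 81 in SA, 274 in METS and 199 in DLD1, and all 11 of its regions were below SA. MGST1 had 3 in SPH, 27 in SA, 79 in METS and 80 in DLD1. H3K27me3 at ZNF141 was 298 in SPH and 229 in SA, and at MGST1 it was 2953 in SPH and 2802 in SA, neither called. GLDC, the glycine decarboxylase gene, had higher H3K4me3 and lower H3K79me3 in SPH, on few counts. GLDC had 38 in SPH and 9 in SA for H3K4me3, at 1 region inside the gene 50818 bp from its start, and 12 in SPH and 64 in SA for H3K79me3. TMEM229A had 5 in SPH and 61 in SA for H3K4me3, and 38 in SPH and 84 in SA for H3K27me3.

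**Figure D5:**
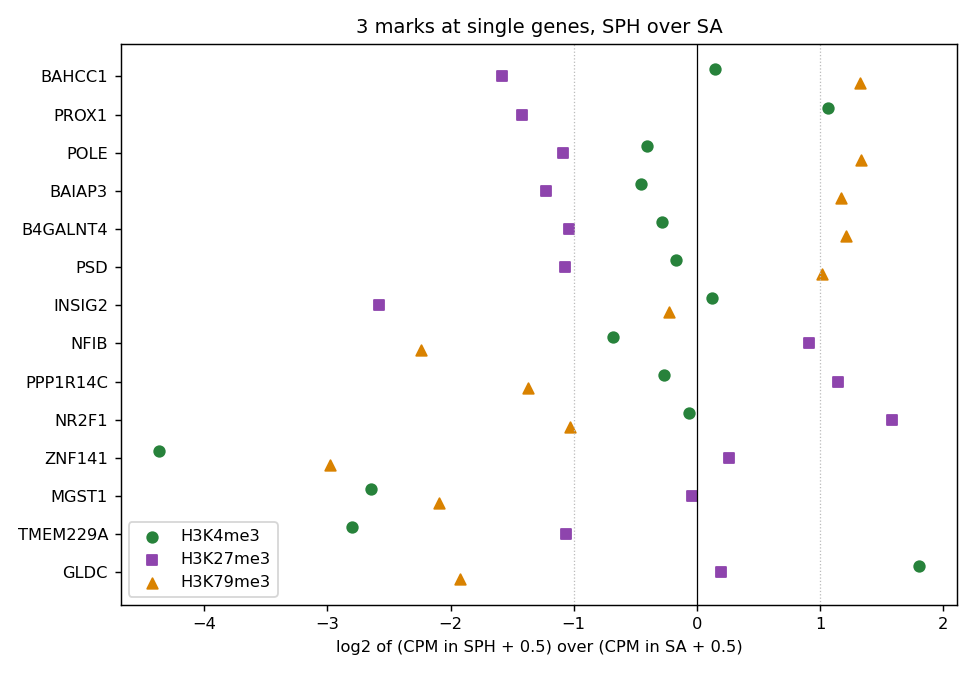
Log2 ratio of SPH over SA (0.5 CPM added) of H3K4me3 (circles), H3K27me3 (squares) and H3K79me3 (triangles) at genes past 2-fold in at least 2 marks and at INSIG2 and NFIB; dotted lines mark 2-fold, and a mark with no region is not drawn. From BAHCC1 to PSD H3K27me3 lies left of 0, with H3K79me3 to its right where drawn. The name POLE is uncertain.

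In 21 lists of genes for pathways and cell types, 542 of 797 symbols had been assigned an interval. The lists were chosen with earlier results of these data known, so their shares are a description and no test of a pathway. H3K4me3 was called higher in 5 and lower in 6 of 386 list genes with counts, which is 1.30% and 1.55%, against 0.497% and 0.985% of all protein-coding genes. H3K27me3 was higher in 0 and lower in 3 of 542, the lower ones 0.554%, against 0.373% of all. H3K79me3 was higher in 18 and lower in 4 of 271, 6.64% and 1.48%, against 5.84% and 1.05% of all. No member of the lists for junction genes, EMT transcription factors, keratins, Hippo and anoikis genes or housekeeping genes was called in any of the marks. These lists are small: 5 EMT transcription factors had H3K4me3 counts and 1 had H3K79me3, and for keratins these were 8 and 6. Beside the shares of all protein-coding genes above, 0 calls in lists of this size say little about these genes.

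Of Wnt pathway genes 3 of 30 with H3K4me3 were called higher, PROX1, DKK3 and WIF1, which is 10.0%, against 0.497% of all protein-coding genes. In H3K79me3 2 of 17 were higher, 11.8%, against 5.84% of all, and in H3K27me3 1 of 35, PROX1, was lower, 2.86%, against 0.373% of all. The secreted antagonist genes DKK3 and WIF1 had low H3K4me3, with 44 counts in SPH and 21 in SA at DKK3, and 25 in SPH and 11 in SA at WIF1. SP5, a direct Wnt target, had 126 H3K79me3 counts in SPH and 45 in SA, 3.30-fold higher (2.33 to 4.75). NKD2, an inhibitor of the pathway, had 70 in SPH and 28 in SA. In the Notch pathway HES4, a target gene, and LFNG and RFNG, which encode glycosyltransferases that modify the receptors, were called higher in H3K79me3, 3 of 12 members or 25%, against 5.84% of all genes. Shares of H3K79me3 calls in this and the other lists were not matched to all genes for gene length, whose part was not tested. RFNG had 214 in SPH and 100 in SA, 2.52-fold higher (1.98 to 3.23).

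Among colonosphere and stemness markers 2 of 8 genes with H3K79me3 were called higher and 2 lower, where 5.84% and 1.05% of all protein-coding genes were. EPHB2, a receptor of crypt cells, had 315 counts in SPH, 171 in SA, 206 in METS and 156 in DLD1, 2.17-fold higher (1.80 to 2.63). KLF4, a factor of pluripotency and of epithelia, had 640 in SPH and 332 in SA, 2.27-fold higher (1.99 to 2.60). ALCAM, the gene of the surface marker CD166, had 81 in SPH, 201 in SA, 216 in METS and 217 in DLD1, 0.475 of the SA level (0.363 to 0.618). The fourth, ALDH1A3, had 2 in SPH and 10 in SA. None of 13 list members with H3K4me3 was called. Of all protein-coding genes 0.497% were called higher and 0.985% lower in that mark, so this says little about the list. ELF3, an epithelial ETS factor gene, had 1265 H3K79me3 counts in SPH, 516 in SA, 1015 in METS and 818 in DLD1, 2.89-fold higher (2.61 to 3.21), and all 8 of its regions were above SA.

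Of 26 chromatin enzyme genes with H3K79me3, 5 were called higher and 0 lower, 19.2%, against 5.84% of all protein-coding genes. They were BAHCC1, the Polycomb reader genes CBX2 and CBX8, the DNA methyltransferase gene DNMT3A and the H3K4 methyltransferase gene SETD1B. SETD1B had 1679 in SPH and 971 in SA, 2.04-fold higher (1.88 to 2.21), and CBX8 had 145 in SPH and 77 in SA, 2.22-fold higher (1.67 to 2.97). None of these 5 was called in H3K4me3, where 0.497% of all protein-coding genes were called higher and 0.985% lower, so this says little.

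In the TGF-beta and BMP list 1 of 23 genes with H3K79me3 was higher and 1 lower, 4.35% each, against 5.84% and 1.05% of all genes, and 1 of 28 with H3K4me3 was lower, 3.57%, against 0.985%. ID3, an inhibitor of basic helix-loop-helix factors, had higher H3K79me3, with 251 in SPH and 137 in SA. INHBB, for an inhibin and activin subunit, had 22 in SPH, 82 in SA, 319 in METS and 128 in DLD1. ID4 had 30 H3K4me3 counts in SPH and 69 in SA. In the remaining lists the gastric mucin gene MUC5AC had 67 H3K4me3 counts in SPH, 157 in SA, 260 in METS and 87 in DLD1. HOXB13 had 23 H3K27me3 counts in SPH and 63 in SA, the 1 call among 35 HOX genes, 2.86%, against 0.373% of all genes. GRB10, an imprinted gene of an adaptor protein, had 330 H3K79me3 counts in SPH, 1077 in SA, 2753 in METS and 1255 in DLD1, 0.362 of the SA level (0.319 to 0.409).

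METS and DLD1 took no part in choosing the regions called between SPH and SA. At the 144 H3K4me3 regions lower in SPH (5 CPM or more in a line), METS was nearer to SA at 141 and DLD1 at 143. At the 542 higher regions METS was nearer to SA at 400 and DLD1 at 433. Of 68 H3K27me3 intervals lower in SPH at this level, METS was nearer to SA at 58 and DLD1 at 63, and of the 42 higher in SPH METS was nearer to SA at 22 and DLD1 at 34. H3K79me3 divided otherwise. Of its 4911 higher regions METS was nearer to SPH at 4072, while DLD1 was nearer to SA at 3786, and the medians were 12.7 CPM in SPH, 4.95 in SA, 11.3 in METS and 6.78 in DLD1. Of its 2419 lower regions METS was nearer to SPH at 1437 and to SA at 982, and DLD1 was nearer to SA at 1835.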

How the data were processed

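Chromatin immunoprecipitation and sequencing of H3K4me3, H3K27me3 and H3K79me3 had been done once in each line, with a Diagenode kit per the labels' protocols. The deposited tables hold counts of reads per region, whole numbers with no normalization by the authors, as judged from the values. Coordinates are in hg19, per the submitters' processing notes. How reads were aligned, regions called, and inputs or duplicates handled is not given in the sources used here. Differing regions can be seen only where the authors had placed one. The H3K27me3 table was held in part, since its last line states that 7773 further rows were skipped. It covers chromosomes 1 to 19, the last of them only up to position 33793470.

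Counts were scaled to CPM of the column total with pandas 2.3.3, and 0.5 CPM was added before each log2 ratio. Intervals came from SciPy 1.17.1. A floor of 3 counts per library was used at 0. Of 50000 H3K27me3 rows, 33921 were paired with a RefSeq symbol (GRCh38.p14) by length and spacing of neighbouring genes, with no coordinates converted; 88.3% of protein-coding genes on chromosomes 1 to 18 were paired. A wrong pairing would give a wrong name to a row. H3K4me3 and H3K79me3 counts were summed over regions within the body extended by 2 kb. A region on overlapping genes counted for each of them.

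Named were, per mark and direction, the 10 regions with the largest log2 ratio above 3 times the median level (5 CPM for H3K27me3), the 5 largest of at least 50 kb, list genes past 2-fold with 20 counts, and genes past 2-fold in 2 marks. Members and lists were chosen with earlier results of these data known. TMM factors (edgeR 4.0.16), size factors (DESeq2 1.42.0), other added values, filters and folds were tried. The scripts were tested on simulated data. A gene past 2-fold in 2 marks is not reported here.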

Additional observations from a re-analysis of the deposited data

How the results depend on the processing

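No paired analysis was possible because each line had 1 library per mark, which also means that no replicate could be left out. Counts of called regions depended on the value added before the log2 ratio, on the filter and on the fold, and the split for 4-fold is given above for H3K4me3. For H3K4me3, 0.1 CPM gave 2162 higher and 1113 lower, 2 CPM 211 and 132, regions at or above the median level 46 and 4, and 4-fold 12 and 80. For H3K27me3 the same settings gave 1597 and 2170, 21 and 31, 61 and 113, and 2 and 4. For H3K79me3 they gave 14069 and 15811, 3298 and 1006, 4911 and 2497, and 199 and 145. Over protein-coding genes, 2 CPM gave 11 higher and 50 lower for H3K4me3, 9 and 12 for H3K27me3, and 318 and 26 for H3K79me3. The larger added value shrinks the ratio of faint regions by construction, and the stricter settings test fewer regions or ask for more; no further cause was tested. With 0.1 CPM, more H3K79me3 regions were lower than higher. H3K79me3 regions 1 kb or more from a gene start, an alternative chosen after seeing the data, gave 6480 higher and 7183 lower, so lower calls outnumbered higher ones there. TMM and size factors moved no count of called regions by more than 1.5 times. Under both scalings all 114 named regions with counts in both lines kept their direction, and none moved beyond its interval. Regions with 0 counts in SPH or SA, CALHM2 among them, were left out of this check. Adding 0.5 CPM cannot turn a direction and is no check of it. Of 219 results for lists, TMM factors moved 23 and 2 CPM moved 21. Low counts limit many of the regions: the intervals of regions with 1 count in SPH span more than 2 orders of magnitude.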
